A study of Mus musculus with 86 samples.

Results

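Arg1, Apoa2, Apoc1, Rbp4, Tat and F2 are 6 genes with known hepatocyte products, and their probes were followed through liver, spleen, thymus and brain of mice heterozygous for a targeted Dll1 allele. All probes that the platform annotation assigns to these symbols were taken, which gave 7 probes of 20794, or 6 genes of 9030 named ones, with 2 probes for Arg1 and 1 for each other gene. The genes had been chosen on values of these same arrays. Arg1, Apoa2 and Rbp4 stood out by low ratios in C3H liver, while it is not known which values led to the choice of Apoc1, Tat and F2. The liver ratios of both strains are therefore a description here, and for Apoc1, Tat and F2 the other organs cannot be taken as independent of the choice either.

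Dll1 encodes a Notch ligand, and the study asked how the loss of 1 copy changes adult organs on different inbred backgrounds. RNA was taken from single organs of male mice that carried the Dll1tm1Gos allele, in which lacZ is inserted into the Dll1 coding sequence, beside a wild-type copy. Each RNA was labelled with Cy3 or Cy5 and hybridised to a 2-colour cDNA array against a wild-type pool of matching strain and organ in the other dye, and both dye orientations were run in every group. Each ratio therefore shares its denominator with all other mice of its group, the spread between wild-type mice is not part of any error given here, and a low ratio in all mice of a group cannot be told apart from a pool that was high in that transcript.

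The groups were heterozygous C3H mice of 15 weeks (a line outcrossed to C3HeB/FeJ) with 5 mice for each of liver, spleen, thymus and brain, and heterozygous 129SvJ/Iso mice of 16 weeks with 4 mice for liver, 5 for spleen and 4 for brain. The references were wild-type male pools of the same strain, organ and age, with 5 mice listed in the labels for C3H and 4 for 129SvJ/Iso. The sources differ on both points, since the labelling protocol speaks of 6 control animals in a pool and the study's methods give 16 weeks as the age. For 129SvJ/Iso thymus a heterozygous pool was set against a wild-type pool on 6 arrays, which are technical repeats and carry no test. All values are log2 ratios (heterozygous RNA over its pool), so that a value of −1 means that the heterozygous level was about 50% of the pool, and are given as mean ± SD over mice. In all, 86 arrays were used, with 3.06% to 10.2% of values missing in the C3H groups and 21.9% to 27.0% in the 129SvJ/Iso groups. Ratios hold no levels, so neither the organ of a sample nor the abundance of a probe could be checked with marker genes. The sign of the ratios rests on transcripts the study names as reduced in heterozygotes and has no independent check. In C3H spleen and 129SvJ/Iso brain, arrays of the same mouse in opposite dye orientations correlated no better than arrays of different mice (median Spearman −0.039 against −0.019, and −0.112 against −0.109), so the direction there is less certain. In 129SvJ/Iso spleen and C3H brain the same medians were 0.0013 against −0.029 and 0.022 against −0.026, so the direction has little support there too.

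The liver parenchyma makes most of the proteins that carry lipids, vitamins and clotting activity in plasma, and it disposes of amino acid nitrogen. Apoa2 and Apoc1 encode small apolipoproteins of high density and triglyceride-rich lipoproteins, and Rbp4 encodes the carrier that brings retinol from liver stores to other tissues. F2 encodes prothrombin, the precursor of the clotting protease thrombin. Arg1 encodes arginase of the urea cycle, which splits arginine into urea and ornithine, and Tat encodes tyrosine aminotransferase, the first enzyme of tyrosine breakdown and a classical target of glucocorticoids. Arg1 is in addition made by some macrophages, so that its RNA is not restricted to hepatocytes.

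Promoter sequences are shown because the liver ratios of these genes lay on the same side of 0 in most mice. In the RefSeq table (GRCm38.p6, 250 bases before to 50 after a start), 4 of the 6 genes had entries, 6 in all, and for Apoa2 and Rbp4 the downstream entry of a pair is printed. Capitals mark every match, on either strand, to 5 motifs. The TATA box was searched as TATAAA, and the CCAAT box by the letters of its name. The HNF1 core was searched as GTTAAT, the HNF4 core as CAAAGT, and the C/EBP core as TTGCNNAA or TTNNGCAA, where N is any base. No 2 matches overlapped.
Apoa2, chr1:171224804-171225103, plus strand: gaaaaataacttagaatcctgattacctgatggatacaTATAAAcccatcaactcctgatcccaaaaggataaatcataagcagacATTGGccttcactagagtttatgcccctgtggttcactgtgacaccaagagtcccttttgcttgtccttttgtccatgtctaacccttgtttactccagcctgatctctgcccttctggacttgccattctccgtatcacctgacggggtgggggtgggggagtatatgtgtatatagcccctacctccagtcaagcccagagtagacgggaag
Rbp4, chr19:38124762-38125061, minus strand: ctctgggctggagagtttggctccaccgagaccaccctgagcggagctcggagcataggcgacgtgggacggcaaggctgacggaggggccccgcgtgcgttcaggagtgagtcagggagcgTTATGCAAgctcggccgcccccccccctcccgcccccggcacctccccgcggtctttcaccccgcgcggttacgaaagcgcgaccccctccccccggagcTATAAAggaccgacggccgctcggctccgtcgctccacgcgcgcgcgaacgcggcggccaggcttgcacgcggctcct
Tat, chr8:109990186-109990485, plus strand: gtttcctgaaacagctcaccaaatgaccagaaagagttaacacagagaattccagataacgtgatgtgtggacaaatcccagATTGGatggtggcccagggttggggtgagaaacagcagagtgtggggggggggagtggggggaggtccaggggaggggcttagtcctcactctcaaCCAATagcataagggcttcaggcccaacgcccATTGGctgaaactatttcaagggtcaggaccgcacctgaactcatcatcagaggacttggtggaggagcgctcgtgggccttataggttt
F2, chr2:91636408-91636707, minus strand: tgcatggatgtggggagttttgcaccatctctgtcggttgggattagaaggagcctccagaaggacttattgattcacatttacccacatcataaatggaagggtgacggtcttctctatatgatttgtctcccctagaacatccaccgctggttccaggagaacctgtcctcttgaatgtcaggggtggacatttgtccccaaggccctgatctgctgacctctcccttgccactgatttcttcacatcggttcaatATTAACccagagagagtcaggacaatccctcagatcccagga

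The Rbp4 window held TATAAA from −28 to −23 relative to the start and a C/EBP core from −128 to −121, and the Apoa2 window held TATAAA from −212 to −207 and an inverted CCAAT box from −164 to −160. The Tat window held 3 CCAAT boxes, at −168, −72 and −40 by their first base, of which the outer pair was inverted. The F2 window held a single match, an inverted HNF1 core from 9 to 14 after the start. No motif was shared by all 4 windows, and the HNF4 core was matched in none. The Apoa2 entry not printed held C/EBP cores from −164 to −157 and from −140 to −133 and an inverted CCAAT box from −128 to −124. The Rbp4 entry not printed held an inverted CCAAT box from −162 to −158. Of all 32851 promoters of the table, 13.6% held the TATA box, 37.4% the CCAAT box, 7.1% the HNF1 core, 14.4% the HNF4 core and 10.8% a C/EBP core, so such matches are common and are only a description of these letters. Arg1 lies on chromosome 10 from 24915207 to 24927470 and Apoc1 on chromosome 7 from 19689480 to 19692659.

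In C3H liver the 7 probes averaged between −0.64 and −0.25, with a median of −0.52 against 0.034 over all 20335 probes measured in at least 3 mice. Arginase gave nearly the same picture with either probe. Probe 1957 of Arg1 had −0.68, −0.15, −1.07, −0.78 and −0.53 in heterozygous C3H mice 1 to 5 (mean −0.64 ± 0.34, n = 5), and probe 18301 had −0.62, −0.087, −0.88, −0.86 and −0.56 (−0.60 ± 0.32, n = 5). All 5 mice lay below the wild-type pool with both probes, and the probes differed by 0.0675 in the median mouse and by at most 0.198.

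The lipid and vitamin carriers followed the same order of mice. Apoa2 had −0.46, 0.042, −1.01, −0.77 and −0.38 in C3H mice 1 to 5 (−0.52 ± 0.40, n = 5). Apoc1 had −0.51, 0.081, −0.77, −0.67 and −0.21 (−0.42 ± 0.35, n = 5), and Rbp4 had −0.49, −0.037, −0.97, −0.67 and −0.12 (−0.46 ± 0.39, n = 5). Mouse 2 sat at or near the pool for all 3 carriers, and mice 3 and 4 were the lowest.

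Prothrombin and tyrosine aminotransferase showed the same contrast between mice, with a wider spread. F2 had −0.59, 0.064, −0.96, −1.07 and −0.17 in C3H mice 1 to 5 (−0.54 ± 0.49, n = 5). Tat had −0.34, 0.62, −0.92, −0.79 and 0.19 (−0.25 ± 0.65, n = 5), so its SD exceeded its mean and 2 of 5 mice lay above the pool. Tat was the member with the mean nearest to 0, with 14.4% of all probes lower than it, against 1.80% to 6.27% for the other 6.

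Values spread more between mice than between genes. Mouse 2 had the highest ratio of all mice for 7 of 7 probes, and mice 3 and 4 were the lowest pair for 7 of 7. The median over the 7 probes was −0.51, 0.042, −0.96, −0.78 and −0.21 in mice 1 to 5, whereas the median over all probes stayed between −0.006 and 0.0775. Since the probes share the RNA of a mouse, these 7 orders are not independent. Of the 7 probes, 3 were below 0 in every mouse, as were 6.81% of all 20335 probes. This contrast was used to choose the genes, and nothing is read from that count. By limma (Benjamini-Hochberg adjustment), 0 of the 20335 probes passed an adjusted p under 0.05 (0%), and 2801 had an unadjusted p under 0.05.

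**Figure D1:**
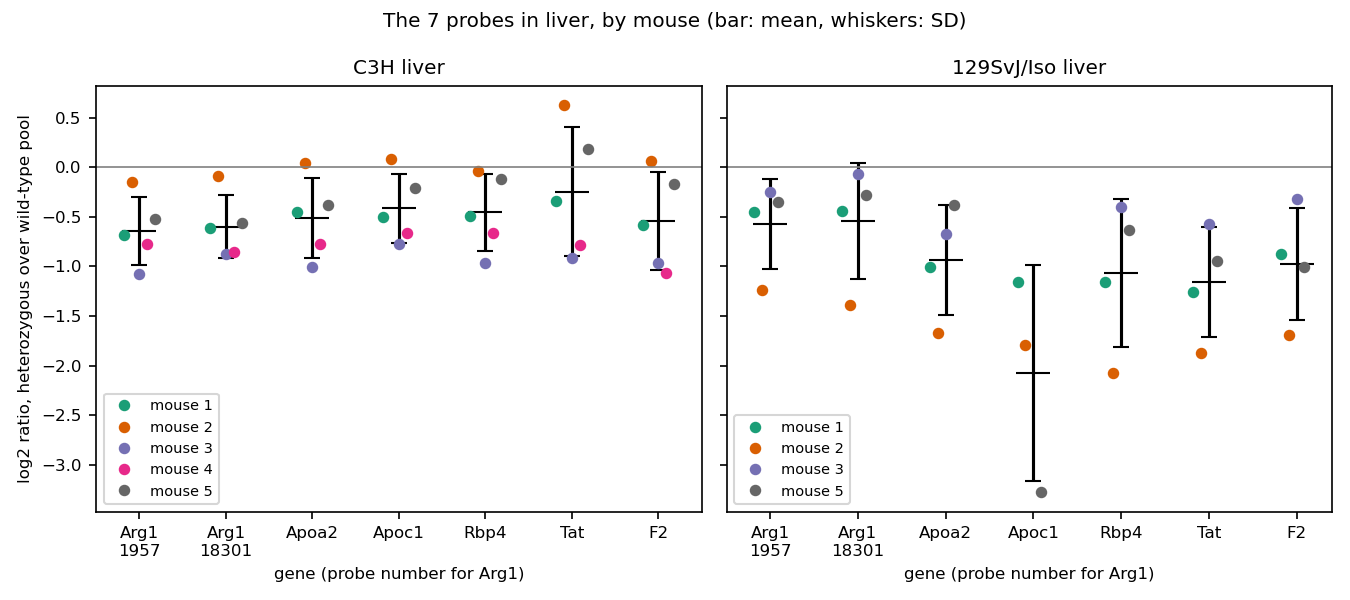
Log2 ratio of heterozygous over wild-type RNA (y axis) for the 7 probes (x axis) in C3H liver (left, 5 mice) and 129SvJ/Iso liver (right, 4 mice). Points are mice, bars are means and whiskers are SD. C3H mouse 2 lies at or above the other mice for every probe, and 129SvJ/Iso mouse 2 is the lowest for every probe except Apoc1.

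In 129SvJ/Iso liver all 7 probes were below 0 in every mouse measured, and the median of their means was −0.97, against 0.074 over all 13462 probes. Of all probes, 16.8% were below 0 in every mouse. The 2 Arg1 probes again ran together. Probe 1957 had −0.45, −1.24, −0.25 and −0.35 in heterozygous mice 1, 2, 3 and 5 (−0.57 ± 0.45, n = 4), and probe 18301 had −0.44, −1.39, −0.0675 and −0.28 (−0.54 ± 0.58, n = 4). The probes differed by at most 0.183 within a mouse, and mouse 2 was the lowest with both.

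Tat and F2 lay further from the pool here than Arg1 did. Tat had −1.26, −1.88, −0.57 and −0.94 in 129SvJ/Iso mice 1, 2, 3 and 5 (−1.16 ± 0.55, n = 4), which is about 45% of the pool. F2 had −0.87, −1.69, −0.32 and −1.01 (−0.97 ± 0.56, n = 4). Mouse 2 was again lowest and mouse 3 nearest to the pool. For Tat, 0.988% of all probes had a lower mean, and for F2 2.90% did.

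Among the carriers, Apoa2 had −1.01, −1.67, −0.67 and −0.38 in 129SvJ/Iso mice 1, 2, 3 and 5 (−0.93 ± 0.55, n = 4). Rbp4 had −1.16, −2.08, −0.40 and −0.64 (−1.07 ± 0.74, n = 4). These 2 carriers were thus at about 52% and 48% of the pool on average. Apoc1 had −1.16, −1.79 and −3.28 in mice 1, 2 and 5 (−2.08 ± 1.09, n = 3), the lowest mean of all 13462 probes in this group.

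The low value of Apoc1 rested in part on single arrays. Mouse 5 had −2.95, −0.55 and −6.66 on its 3 arrays, and without the last of these its value was −1.75 and the mean over mice −1.57 ± 0.35 (n = 3). Mouse 3 had a value in only 1 dye orientation, 2.10, and was therefore left out. With the plain mean over the arrays of each mouse, which lets mouse 3 in, the mean was −1.09. The ratio of Apoc1 was below 0 in 3 of 3 mice with both orientations and above 0 in the mouse with 1.

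The medians were below 0 in both dye orientations of both livers. In 129SvJ/Iso liver, 39 of 41 values of the 7 probes were below 0 with heterozygous RNA in Cy3 and 39 of 42 with it in Cy5. In C3H liver it was 32 of 35 in Cy3 and 27 of 35 in Cy5, and the medians were −0.64 and −0.35. Of all values on those arrays, 45.7% to 48.5% were below 0. Apoa2 in 129SvJ/Iso liver depended most on the dye, with −1.45 over the Cy3 arrays and −0.32 over the Cy5 arrays.

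By limma, 0 of 7 probes passed in 129SvJ/Iso liver (adjusted p between 0.346 and 0.451, background 0% of 13462), and 5 of 7 had an unadjusted p under 0.05, as had 1899 of all probes. With all arrays in the fit and the mouse as a random block, Tat passed (−1.24, adjusted p = 0.0392), 1 of 108 probes that did. It did not pass in the other alternatives run (adjusted p between 0.199 and 0.58). Since the genes were chosen on these arrays, the p-values in this liver are a description and no support. The median over the 7 probes was −1.01, −1.69, −0.36 and −0.64 in mice 1, 2, 3 and 5, and without mouse 2 the median of the means was −0.71. Differences between the strains in liver were not tested because the genes were chosen on liver. As a description, C3H minus 129SvJ/Iso was −0.07 ± 0.28 and −0.05 ± 0.31 for the Arg1 probes (difference ± SE), 0.42 ± 0.32 for Apoa2, 0.61 ± 0.36 for Rbp4, 0.43 ± 0.34 for F2, 0.91 ± 0.38 for Tat and 1.66 ± 0.45 for Apoc1. In RNA of whole liver, fewer hepatocytes and less of a transcript per hepatocyte cannot be told apart.

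In spleen, thymus and brain of C3H heterozygotes the means of the 7 probes lay on both sides of 0. A p that misses the threshold does not show that a gene was unchanged. In C3H thymus the 7 probes averaged between −0.06 and 0.05, all smaller than their SD of 0.16 to 0.30 (n = 5 each). By limma, 0 of 7 passed in thymus (adjusted p between 0.886 and 0.999, 0% of 20003 probes), 0 of 7 had an unadjusted p under 0.05 and 0 of 7 were below 0 in every mouse, as were 6.93% of all probes. The closest to the pool was probe 18301 of Arg1 at −0.001 ± 0.24, with values between −0.31 and 0.33.

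In C3H brain 6 of 7 probes averaged between 0.027 and 0.21, and Apoa2 had −0.41 ± 0.62 (n = 4). The Apoa2 mean came largely from 1 mouse at −1.30, while the highest was 0.11. F2, with a mean of 0.076, was below 0 in 4 of 5 mice, with mouse 1 at 0.96. Arg1 probe 18301, the highest mean, had 1.06 in mouse 1. Both values came largely from the Cy5 array of that mouse, with 2.20 for F2 and 2.04 for Arg1. Its Cy3 array gave −0.28 and 0.088. Probe 1957 of Arg1 was the least variable, with 0.16 ± 0.10 (n = 5) and 4 of 5 mice above 0. No probe passed (0 of 7, limma adjusted p between 0.57 and 0.909, 0% of 20201), none had an unadjusted p under 0.05, and none was below 0 in every mouse, against 7.05% of all probes.

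In C3H spleen Tat was the only member below 0 in every mouse. It had −0.088, −0.43, −0.65, −0.36 and −0.11 in mice 1 to 5 (−0.33 ± 0.24, n = 5, limma adjusted p = 0.796). The unadjusted p missed 0.05 as well, and 6.14% of all probes were below 0 in every mouse. By array, Tat was below 0 on 5 of 5 with heterozygous RNA in Cy3 (mean −0.48). With it in Cy5 it was below 0 on 2 of 4 (−0.19), and mouse 1 was run in Cy3 only. The mean of Arg1 probe 1957, 0.50 ± 1.19 (n = 5), came from mouse 3 at 2.58, of which 1 array gave 4.78 and the other 0.39. Without that array, 4 mice remained and the mean was −0.0175 ± 0.28. Overlapping ranges around 0 were seen for Apoa2 (0.084 ± 0.59, n = 4), Rbp4 (−0.089 ± 0.41, n = 5) and F2 (−0.091 ± 0.25, n = 5), while Apoc1 had 0.14 ± 0.15 (n = 5) and Arg1 probe 18301 had 0.27 ± 0.33 (n = 3). For that Arg1 probe mouse 2 was left out with a value in Cy5 only (−1.23) and mouse 4 with a value in Cy3 only (4.79), and the plain mean over arrays was 0.87. In all, 0 of 7 probes passed in spleen (adjusted p between 0.796 and 0.953, 0% of 18546) and 0 of 7 had an unadjusted p under 0.05. With the sign turned on the Cy5 arrays, since the direction is uncertain here, 0 of 7 passed too, Tat was below 0 in 4 of 5 mice and F2 in 5 of 5.

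**Figure D2:**
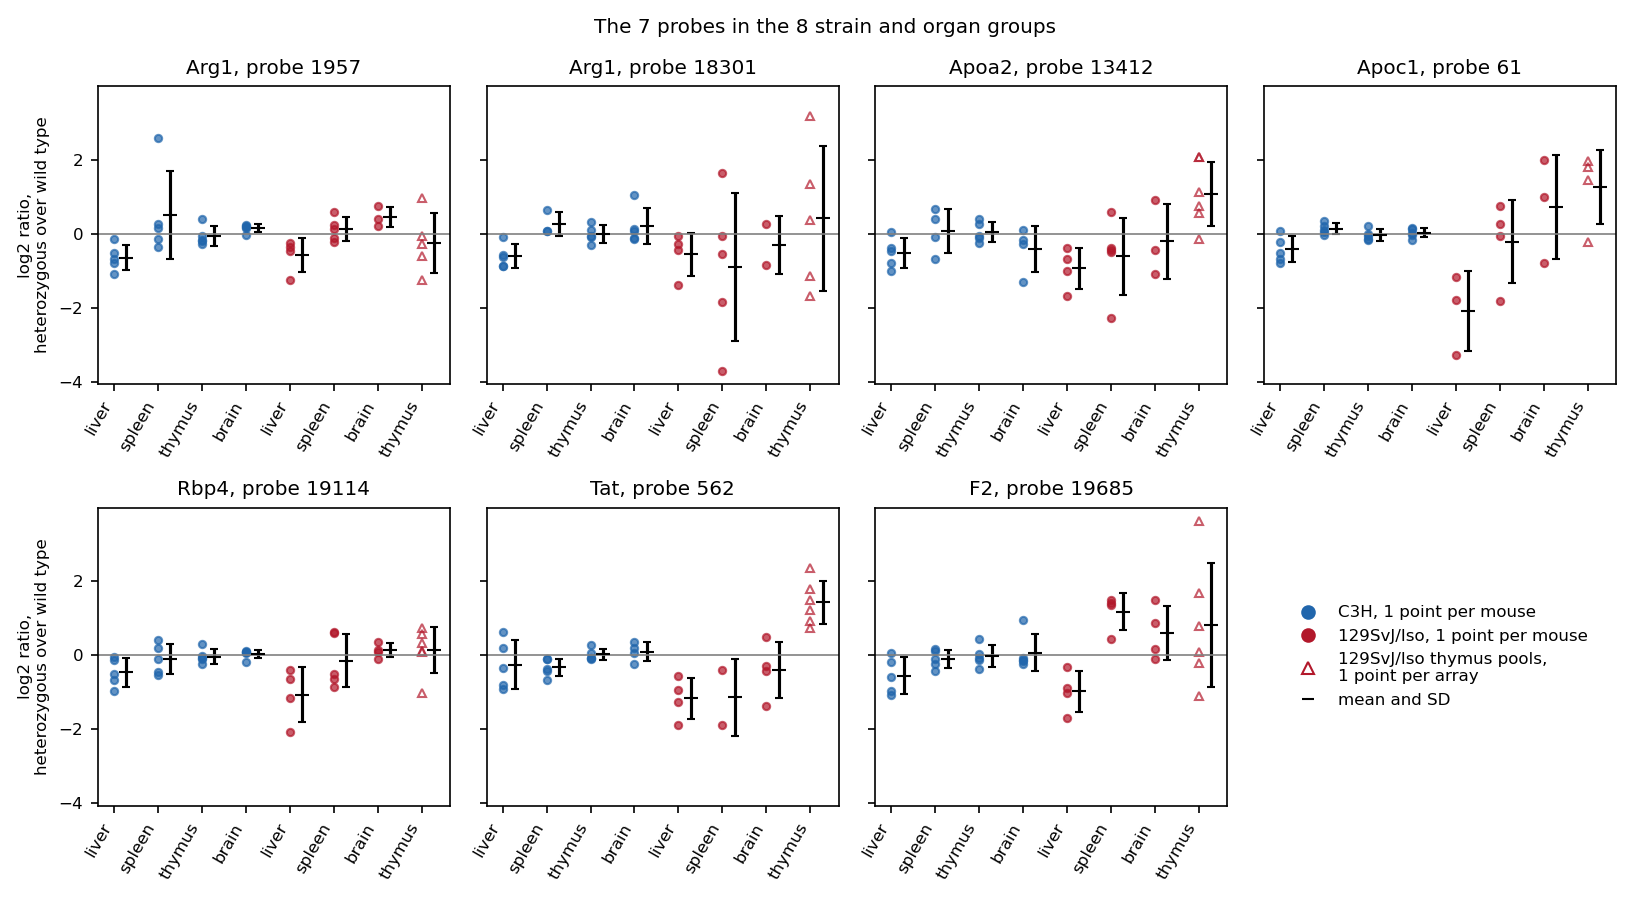
Log2 ratios (heterozygous over wild type, y axis) of each probe in the 8 groups (x axis, C3H in blue, then 129SvJ/Iso in red). Filled points are mice, open triangles are the 6 technical arrays of the thymus pools, and black bars with whiskers are means and SD. Liver lies below 0 in both strains for each probe on average, F2 lies above 0 in 129SvJ/Iso spleen, and C3H thymus stays between −0.06 and 0.05 on average.

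In 129SvJ/Iso spleen F2 stood on the other side of the pool than in liver. It had 1.43, 0.44, 1.51 and 1.36 in heterozygous mice 1, 3, 4 and 5 (1.19 ± 0.50, n = 4), a level about 2.27-fold that of the pool and above 98.7% of all probes. Mouse 2 had a value in Cy3 only (−0.094) and was left out. The arrays behind these means disagreed, with values between −0.87 and 3.56 in Cy3 (1 of 5 below 0) and between −0.70 and 1.94 in Cy5 (1 of 4 below 0). The direction of the ratios has little support in this group, and no fit with a turned sign was run for it. The unadjusted p of F2 was under 0.05, as it was for 747 of 15630 probes, and the limma adjusted p was 0.916.

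The other members varied widely in 129SvJ/Iso spleen. The Arg1 probes, which agreed in liver, differed here by 0.30 to 3.82 within a mouse and had the same sign in 1 of 5 mice, with means of 0.13 ± 0.32 and −0.90 ± 2.00 (n = 5). Apoa2 had −0.61 ± 1.04 (n = 5), Apoc1 −0.21 ± 1.12 (n = 4) and Rbp4 −0.15 ± 0.72 (n = 5). Tat had values in both orientations in only 2 mice, −1.87 and −0.40, and was not tested. Of the 6 probes tested, 0 passed (adjusted p between 0.916 and 0.972, 0% of 15630), 1 had an unadjusted p under 0.05, and 0 were below 0 in every mouse, against 7.2% of all probes.

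In 129SvJ/Iso brain the means were 0.45 ± 0.28 for Arg1 probe 1957 (n = 3, above 0 in each), 0.73 ± 1.41 for Apoc1 (n = 3), 0.61 ± 0.72 for F2 (n = 4), 0.14 ± 0.19 for Rbp4 (n = 4), −0.20 ± 1.02 for Apoa2 (n = 3) and −0.39 ± 0.76 for Tat (n = 4). Probe 18301 of Arg1 was measured in both orientations in 2 mice and was not tested. Values of both signs occurred for each probe tested except Arg1. By limma 0 of 6 passed (adjusted p between 0.793 and 0.923, 0% of 15914), 0 of 6 had an unadjusted p under 0.05 and 0 of 6 were below 0 in every mouse, against 8.37% of all probes. With the sign turned on the Cy5 arrays, 0 of 6 passed, and the mean of F2 changed to −0.24.

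In the thymus pools of 129SvJ/Iso, Tat was above 0 on 6 of 6 arrays, with 1.24, 1.80 and 2.36 where the heterozygous pool was in Cy3 and 1.50, 0.93 and 0.75 where it was in Cy5. This side is opposite to that in liver of the same strain, but the arrays repeat a single pair of pools and 11.4% of all 16186 probes were above 0 on every array. Apoa2 was above 0 on 5 of 6 arrays (mean 1.08), Rbp4 on 5 of 6 (0.14), Apoc1 on 3 of 4 (1.26) and F2 on 4 of 6 (0.82). The Arg1 probes had −0.24 and 0.42 on 5 arrays each, with both signs present.

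The differences between organs of 129SvJ/Iso include the liver ratios and so are no independent support. F2 had the largest ratio of difference to SE for liver minus spleen, −2.16 ± 0.43 (SE, n = 4 and 4), with means of −0.97 in liver and 1.19 in spleen and no overlap between the mice (limma adjusted p = 0.419). Apoc1 had −1.86 ± 0.71 (n = 3 and 4), Rbp4 −0.92 ± 0.48, Apoa2 −0.33 ± 0.54, and the Arg1 probes −0.70 ± 0.36 and 0.36 ± 0.86. For liver minus spleen 0 of 6 probes passed and 2 had an unadjusted p under 0.05, where 0% of 11026 probes passed and 1132 had such a p.

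Liver minus brain was below 0 for each of the 6 probes tested. It was −2.81 ± 0.80 for Apoc1, −1.58 ± 0.44 for F2, −1.20 ± 0.39 for Rbp4, −1.03 ± 0.36 for Arg1 probe 1957, −0.77 ± 0.44 for Tat and −0.73 ± 0.53 for Apoa2. The first 4 had an unadjusted p under 0.05, as had 2112 of 11403 probes, and 0 of 6 passed (adjusted p between 0.189 and 0.489, 0% of all). With all arrays and the mouse as a random block, Rbp4, F2 and Arg1 probe 1957 passed (adjusted p = 0.00537, 0.0109 and 0.0226) among 919 probes that did. With the sign turned on the Cy5 arrays of brain, whose direction is uncertain, the 6 differences were again below 0 but in another order, from −3.47 ± 0.58 (SE) for Apoc1 to −0.71 ± 0.36 for Arg1 probe 1957, with −0.74 ± 0.33 for F2, and 0 of 6 passed. Both differences use pools of the organ itself, so a high or low pool in either organ enters them. In C3H the organ differences were not tested. Liver minus thymus was −0.60 to −0.27 over the 7 probes, and liver minus brain −0.81 to −0.11, with Apoa2 nearest to 0. Liver minus spleen was −1.14 to 0.079, with Tat above 0. The −1.14 belonged to Arg1 probe 1957, whose spleen mean of 0.50 was −0.0175 without the array at 4.78. The direction is uncertain in C3H spleen and has little support in C3H brain.

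**Figure D3:**
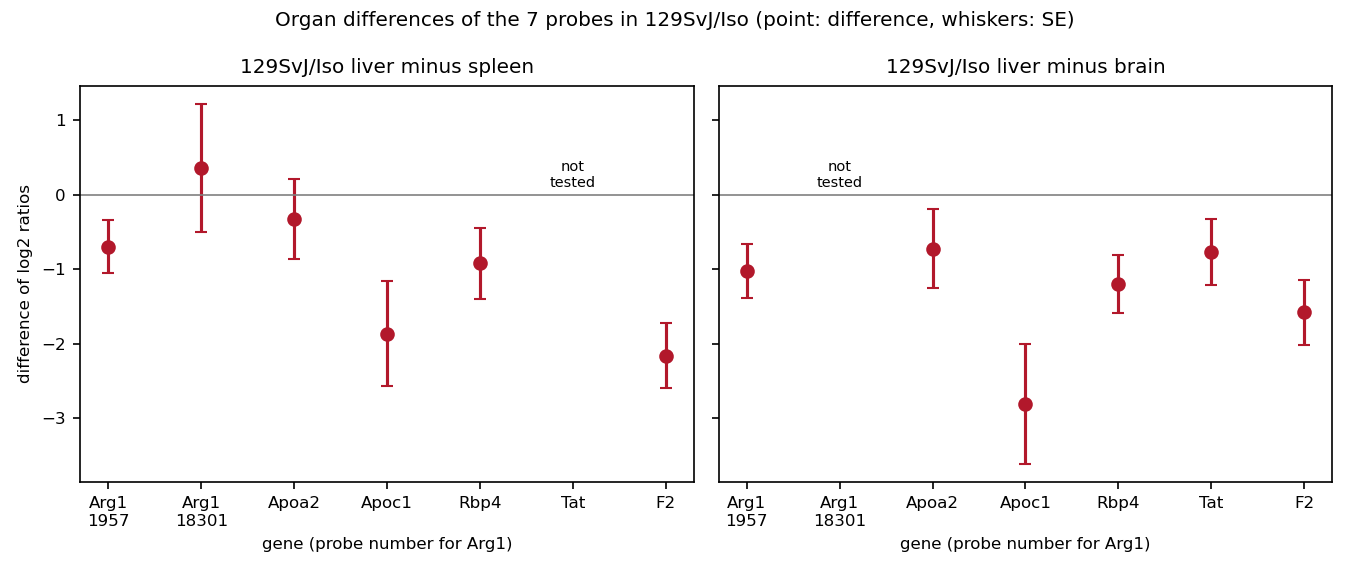
Difference of mean log2 ratios (y axis) in 129SvJ/Iso between liver and spleen (left) and between liver and brain (right) for the 7 probes (x axis). Points are differences and whiskers their SE from limma. Liver minus brain is below 0 for all 6 probes tested, from −2.81 (Apoc1) to −0.73 (Apoa2), none passed the adjusted threshold, and with the sign turned on the Cy5 arrays of brain they ran from −3.47 (Apoc1) to −0.71 (Arg1 probe 1957).

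Between strains, F2 differed most in spleen, with −0.09 in C3H against 1.19 in 129SvJ/Iso (difference −1.28 ± 0.32, SE, n = 5 and 4, limma adjusted p = 0.541). The remaining 5 probes tested in spleen had differences between 0.059 and 1.17 with SE of 0.37 to 0.97. None of these 6 passed, and F2 alone had an unadjusted p under 0.05 (0% of 14031 probes passed, 986 had such a p). The direction is uncertain in C3H spleen and has little support in 129SvJ/Iso spleen. In C3H spleen F2 was split by dye, with −0.41 over 5 Cy3 arrays and 0.30 over 4 Cy5 arrays. With the sign turned on those Cy5 arrays the C3H mean of F2 was −0.33, and no member passed in the spleen difference. In brain, the differences of 6 probes lay between −0.70 and 0.50 with SE between 0.16 and 0.52. None passed or had an unadjusted p under 0.05 (0% of 15487, and 1533). With the sign turned on the Cy5 arrays of 129SvJ/Iso brain, Apoc1 passed (−1.36, adjusted p = 0.0111), 1 of 732 probes that did, in a fit where dye effects no longer cancel.

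Most other plasma carrier probes on the array lay below 0 in liver. Their list was drawn up with results of these arrays known, so its counts are descriptive. In C3H liver 17 of 21 probes of 16 carrier genes were below 0 (median −0.30), against 43.4% of all probes, and in 129SvJ/Iso liver 13 of 15 were (median −0.74), against 45.4%. By limma 0 passed in either strain, and 9 and 9 had an unadjusted p under 0.05, all of them lower. Over all probes, 1558 of 20335 and 841 of 13462 were lower at such a p. Selenop, which encodes the selenium carrier of plasma, had −0.62 ± 0.40 in C3H liver (5 of 5 mice below 0) and −0.95 ± 0.52 in 129SvJ/Iso liver (4 of 4). In C3H liver the phospholipid-binding Apoh had −0.56 ± 0.40 and probe 19709 of the fetal carrier Afp −0.57 ± 0.45 (5 of 5 mice each). The Afp probes disagreed, since 19612 and 19729 had −0.60 ± 1.52 and −0.096 ± 0.28 in C3H liver (3 and 2 of 5 mice below 0), and 19709 and 19612 had 0.64 ± 0.80 and 0.67 ± 0.78 in 129SvJ/Iso liver (1 and 0 of 4 mice below 0). In 129SvJ/Iso liver Ttr, which carries thyroxine and holds Rbp4 in plasma, had −1.15 ± 0.49 (n = 3, all below 0), and Serpina6, the corticosteroid-binding globulin, had −0.95 ± 0.58 (4 of 4).

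The other enzymes of amino acid breakdown and the urea cycle were split. In 129SvJ/Iso liver 20 of 28 probes were below 0 (median −0.73), against 45.4% of all probes, with 9 at an unadjusted p under 0.05 lower and 3 higher. Over all 13462 probes, 841 were lower and 1058 higher at such a p. Got2, the mitochondrial aspartate aminotransferase, had −1.10 ± 0.58 (4 of 4 mice), whereas Glul, which makes glutamine, had 1.33 ± 0.46 with probe 19153 and Aldh4a1, of proline breakdown, had 1.26 ± 0.65 (all 4 mice above 0 in each case). The second Glul probe, 2548, had 0.13 ± 0.81 in that group, so the probes of this gene disagreed. In C3H liver 24 of 31 probes were below 0 with a median of only −0.14, against 43.4% of all probes, with 8 lower and 1 higher at an unadjusted p under 0.05. Over all 20335 probes, 1558 were lower and 1243 higher at such a p. Glul probe 2548 had −0.61 ± 0.39 there, probe 18758 of the histidine-degrading Hal −0.42 ± 0.24 and the lysine-degrading Aass −0.39 ± 0.27. The other probes of Glul and Hal were nearer to 0 or above it there, with −0.16 ± 0.13 for Glul probe 19153 and 0.11 ± 0.18 for Hal probe 5450 (1 of 5 mice below 0). None of these enzymes passed the adjusted threshold in either strain.

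The coagulation proteins beside F2 were below 0 in 13 of 15 probes in C3H liver (median −0.41, 11 with an unadjusted p under 0.05) and in 11 of 12 in 129SvJ/Iso liver (median −0.70, 5 with such a p), and 0 passed. Over all probes, 43.4% and 45.4% were below 0, and 2801 of 20335 and 1899 of 13462 had such a p. In C3H liver Kng1, the kininogen, had −0.38 ± 0.13, the adhesive plasma protein Vtn −0.41 ± 0.24 and F5, the cofactor with which prothrombin is activated, −0.45 ± 0.34, each below 0 in 5 of 5 mice. In 129SvJ/Iso liver the fibrinogen chains Fgg and Fgb had −0.99 ± 0.77 and −0.96 ± 0.78, and Proc, the anticoagulant protein C zymogen, had −0.77 ± 0.39, each below 0 in 4 of 4. In 129SvJ/Iso spleen, where F2 was high, F10, whose active form cleaves prothrombin, had 1.44 ± 0.96 (above 0 in 5 of 5 mice, limma adjusted p = 0.916). But 5 of the 12 coagulation probes there were below 0, against 51.3% of all probes, and their median was 0.14.

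Genes of retinol handling other than Rbp4 had medians of −0.21 in both livers, with 7 of 10 probes below 0 in C3H and 6 of 7 in 129SvJ/Iso. Over all probes, 43.4% were below 0 in C3H liver and 45.4% in 129SvJ/Iso liver. Probe 12508 of Aldh1a1, which oxidises retinal to retinoic acid, had −0.31 ± 0.12 in C3H (5 of 5 mice below 0) and −1.61 ± 0.63 in 129SvJ/Iso (3 of 3), both short of the adjusted threshold. Its other probe, 20443, had −0.55 ± 0.39 in C3H (4 of 4) and −0.21 ± 0.69 in 129SvJ/Iso (3 of 4). Of the hepatocyte transcription factors, in C3H liver 13 of 17 probes were below 0 (median −0.17), among them Cebpa at −0.41 ± 0.19, Nr5a2 at −0.41 ± 0.22 and Hnf4a at −0.37 ± 0.23 (probe 334, with −0.17 ± 0.24 for probe 19031). In 129SvJ/Iso liver 6 of 14 were (median 0.14), near the share of all probes, and none had an unadjusted p under 0.05.

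**Figure D4:**
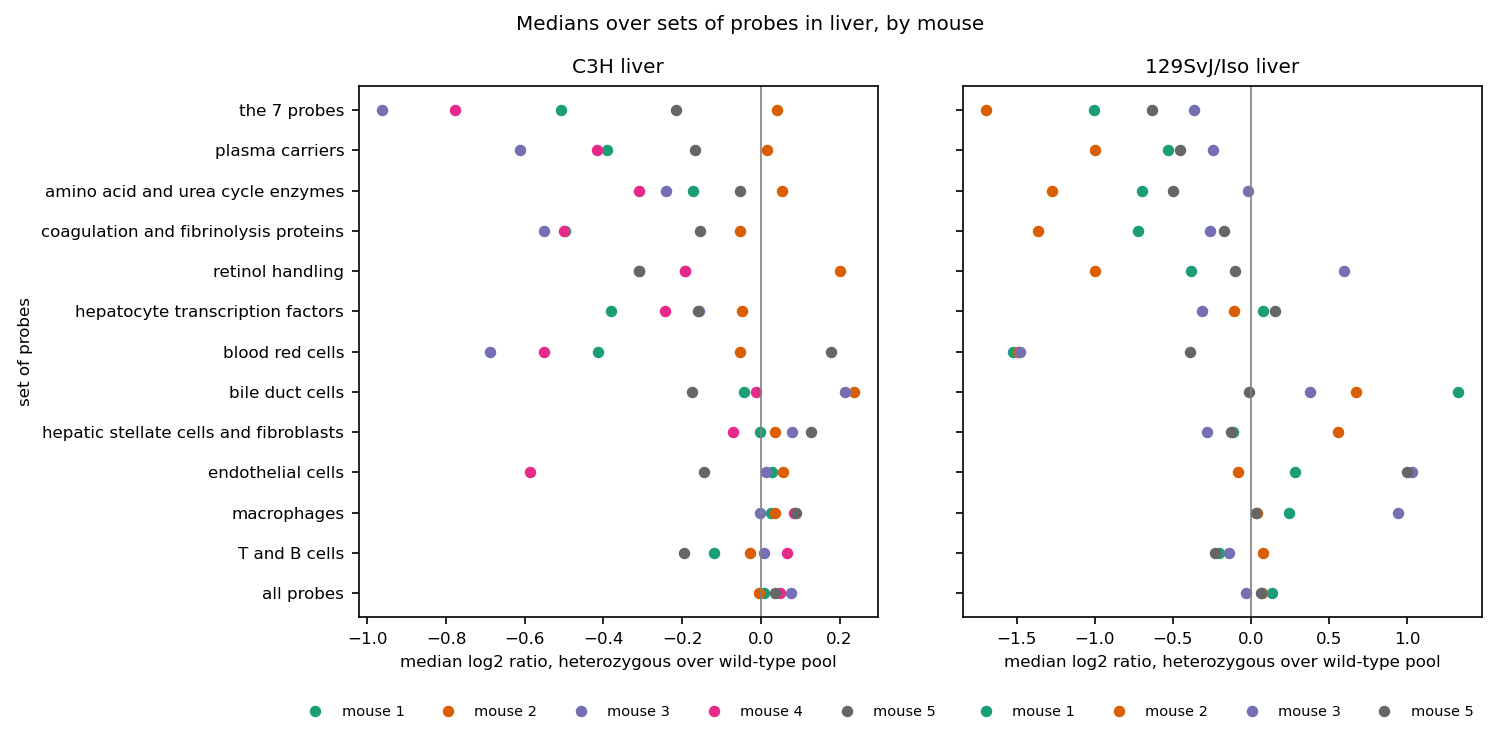
Median log2 ratio of heterozygous over wild-type RNA (x axis) over the 7 probes, 5 related gene lists, 6 lists of markers of other cells and all probes (y axis) for each mouse in C3H liver (left) and 129SvJ/Iso liver (right). Each point is a mouse. Medians over all probes stay between −0.031 and 0.13, while the 7 probes, the carriers and the enzymes are lowest in C3H mice 3 and 4 and in 129SvJ/Iso mouse 2.

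Markers of other cells that liver tissue can hold were read beside these values. Most red blood cell probes lay below 0, as the members did. In C3H liver it was 8 of 8 probes of 3 genes (median −0.33, range −0.45 to −0.12). In 129SvJ/Iso liver it was 7 of 8 (median −1.10, range −1.34 to 0.42), where 6 had an unadjusted p under 0.05 and 0 passed. Most of these probes belong to the single gene Hba-a1. Slc4a1 had −0.45 ± 1.23 in C3H and 0.42 ± 0.98 in 129SvJ/Iso (1 of 4 mice below 0), and Alas2 had −0.12 ± 0.14 and −0.99 ± 0.43. By mouse, the red blood cell median was −0.41, −0.05, −0.69, −0.55 and 0.18 in C3H mice 1 to 5, and −1.52, −1.49, −1.48 and −0.39 in 129SvJ/Iso mice 1, 2, 3 and 5. In C3H, mice 3 and 4 were lowest, as for the members, but mouse 5 was highest. In 129SvJ/Iso the order differed, since the members had their median nearest to the pool in mouse 3, at −0.36. The part of red blood cells in the result was not tested. Bile duct markers had medians of 0.025 in C3H and 0.34 in 129SvJ/Iso liver (2 of 7 and 1 of 5 below 0), stellate cell and fibroblast markers 0.12 and 0.23 (3 of 11 and 4 of 9), endothelial markers −0.24 and 0.39 (5 of 9 and 1 of 6), macrophage markers 0.0625 and 0.27 (3 of 7 and 1 of 4), and T and B cell markers 0.0034 and −0.0087 (3 of 7 and 3 of 5). Over all probes, 43.4% were below 0 in C3H liver and 45.4% in 129SvJ/Iso liver. Levels of these markers are not given by ratios, and their part in the result was not tested.

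Over the mouse and organ values of both strains, each member's course was set against all other named probes with at least 25 shared values. The points share pools, arrays and mice, so the correlations only describe these arrays. Rbp4 ran closest to Cyb5a, which encodes cytochrome b5 (Pearson r = 0.87 over 31 values), then Ago4 (0.84) and Paics (0.83). F2 was most like Akr1a1, an aldehyde reductase (0.84 over 29), then the lysine-degrading Aass (0.80) and the carboxylesterase Ces1c (0.80). Tat was most like Mdh1, the cytosolic malate dehydrogenase (0.83 over 27), then Rpf1 (0.79) and the peroxisomal oxidase Acox2 (0.77).

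Apoc1 was closest to Rnf26 (0.86), Smarce1 (0.85) and Gstm1 (0.84), and Apoa2 to Ammecr1l (0.78), Hacd3 (0.71) and Ciao2b (0.68). The Arg1 probes had no neighbour in common: probe 1957 was closest to Mrpl33 (0.85), Msx1 (0.78) and Cdip1 (0.77), and probe 18301 to Col18a1 (0.85), Grpel1 (0.79) and Sucla2 (0.77). No member was among the 3 closest probes of another member.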

How the data were processed

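The deposited table holds log2 ratios per array, made by the authors from scanned Cy3 and Cy5 images (GenePix software, then the TM4 suite). Normalization, centring and scale: not given in the sources used here. Array medians lay between −0.247 and 0.314. Constant extreme values of 1 size per array (14.88 to 17.54, on 19 to 618 spots), with a sign set by the dye on each of the 86 arrays, were treated as missing, including 3 values of the member probes.

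Repeat arrays of a mouse were averaged per dye first, and the dye means were then averaged. A probe without a value for a dye that the mouse was run in was left out for that mouse. In C3H spleen mouse 1 was run in Cy3 only and was kept with that single array. Ratios were tested against 0 with limma 3.58.1 in R 4.3.3 (lmFit, eBayes, two-sided) over all probes with values in at least 3 mice, with Benjamini-Hochberg adjustment and a threshold of 0.05. Organ and strain differences were limma contrasts. Each mouse is a separate animal by the labels, the pool counts as 1 control sample, and the number of arrays limits precision. Scripts were tested on simulated data. There the test in 129SvJ/Iso liver recovered none of the known changes, so a missed threshold in that group says little, and brain C3H minus 129SvJ/Iso gave more false calls than its threshold allows.

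Gene symbols came from the platform annotation (12771 probes with 1 symbol, 0 with several, 8023 with none), and all 12771 matched a gene ID in RefSeq (GRCm38.p6). The members and all gene lists were chosen with earlier results of these data known. Named genes are every member probe and, from each list, the genes of the 3 smallest unadjusted p under 0.05 in a group, with the 3 probes most alike each member. The mouse numbers follow the animal identifiers of the labels, so organs of 1 number come from the same mouse, and deviations of liver and spleen or brain in the same mouse correlated between −0.03 and 0.037. Alternatives were the floor values, centring, complete probes, robust eBayes, weighting of repeats, each dye alone, averaging per symbol, leaving out each mouse, a turned sign and a mouse block.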

Additional observations from a re-analysis of the deposited data

Results flagged for a closer look

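Of 49 sets of 4 to 10 values of a member probe in a group, 6 held a mouse far from the others. Chance flags about 1 set in 20 where sets are independent. These sets share mice and arrays, and those of the thymus pools are technical arrays, so the 6 cannot be read against that rate. In C3H spleen Arg1 probe 1957 had 2.58 in mouse 3, against a next value of 0.256. In C3H brain the same probe had −0.0185 in mouse 3 while the other 4 mice lay between 0.173 and 0.236, and Rbp4 had −0.167 in the same mouse while the others lay between 0.056 and 0.128. In C3H brain mouse 1 had 1.06 for Arg1 probe 18301, with the next at 0.145, and 0.96 for F2, with the next at −0.0665. In 129SvJ/Iso spleen F2 had 0.44 in mouse 3, below the other 3 mice at 1.36 to 1.51.

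In 3 cases every mouse of a group lay on 1 side of the pool and every mouse of another group on the opposite side. F2 was below 0 in 4 of 4 livers and above 0 in 4 of 4 spleens of 129SvJ/Iso, a difference of −2.16 that did not pass (limma adjusted p = 0.419). The direction of that spleen group has little support, and its sign was not turned. Arg1 probe 1957 was below 0 in 4 of 4 livers and above 0 in 3 of 3 brains of 129SvJ/Iso, a difference of −1.03 that did not pass either (limma adjusted p = 0.21). With the sign turned on the Cy5 arrays of that brain group, whose direction is uncertain, the probe was above 0 in 2 of 3 brains (mean 0.14) and the difference was −0.71. Arg1 probe 18301 was below 0 in 5 of 5 livers and above 0 in 3 of 3 spleens of C3H, a difference of −0.87 that was not tested. The direction of C3H spleen is uncertain, and 2 mice run in both dyes but with a single array value, −1.23 and 4.79, are not among these 3. Mouse 1, run on a single Cy3 array in this group, is among them with 0.078. The spleen mean of 0.27 was 0.87 as a plain mean over arrays, 2.75 with floor values kept, and −0.10 with the sign turned on the Cy5 arrays.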

How the results depend on the processing

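The count of member probes past the threshold was 0 in 158 of 161 combinations of comparison and alternative. The exceptions were 1 probe (Tat) in 129SvJ/Iso liver and 3 probes (Arg1 probe 1957, Rbp4 and F2) in 129SvJ/Iso liver minus brain, both with all arrays and the mouse as a random block, and 1 probe (Apoc1) in brain C3H minus 129SvJ/Iso with the sign turned on Cy5 arrays. Over all probes, calls in place of 0 numbered 108 and 919 in the first pair of fits and 732 in the turned fit. The member calls that involve liver are a description, since the genes were chosen on these arrays. Elsewhere the random block called 0 to 27 probes, brain C3H minus 129SvJ/Iso called 364 and 163 with 1 dye alone, and it called up to 16 with a mouse left out. With the mouse as replicate block, 0 member probes passed by limma in 129SvJ/Iso liver minus spleen (smallest adjusted p = 0.419) and 0 in liver minus brain (0.46). The replicate block was run for no other comparison.

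The median of the 7 probes stayed below 0 in both livers under every alternative run. Leaving out each mouse in turn gave −0.65 to −0.39 in C3H liver and −1.19 to −0.71 in 129SvJ/Iso liver, with the ends reached without mice 2 and 3 in each strain. Of 588 single member values under alternatives, 561 stayed within 1 SD over mice, 27 moved further, and 0 liver means changed sign. Robust eBayes and complete probes leave a mean as it is, and leaving out 1 mouse cannot move it by 1 SD. Many of these outcomes were therefore fixed in advance, and the counts say little. In 129SvJ/Iso the share of missing values limits what spleen and brain can show. The alternatives without an extreme array of Apoc1 and Arg1 were chosen after seeing the data.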

Other observations

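Among genes outside the 6, Selenop, the plasma selenium carrier, was below 0 in 5 of 5 mice in C3H liver, spleen (−0.45 ± 0.20) and brain (−0.34 ± 0.15), and above 0 in 4 of 4 mice in 129SvJ/Iso brain (0.49 ± 0.27). Aass, an enzyme of lysine breakdown, was below 0 in all 4 mice measured in C3H spleen (−0.46 ± 0.24) and in C3H brain (−0.28 ± 0.17). None of these passed the adjusted threshold by limma. Of all probes, 6.81% were below 0 in every mouse in C3H liver, 6.14% in C3H spleen and 7.05% in C3H brain. The share above 0 in every mouse of 129SvJ/Iso brain was not counted. The direction is uncertain in C3H spleen and 129SvJ/Iso brain and has little support in C3H brain, so the opposite sides in brain may not be a strain difference. Red blood cell markers had a median of −0.42 in C3H brain, with 7 of 8 probes below 0 and 5 of 8 at an unadjusted p under 0.05, while the median in C3H thymus and spleen was −0.029 and −0.011. Most of these probes belong to the single gene Hba-a1. Of all 20201 probes in C3H brain, 46.8% were below 0 and 1769 had such a p.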
